A study of Mus musculus with 32 samples.

Results

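Peaks of open chromatin that were found in both brain and liver were collected from 6 peak lists, 1 for each comparison of a tRNA-Phe gene knockout with wild type mice in a tissue. A shared peak was a peak of the Phe21 liver list on chromosomes 1 to 19 that overlapped a peak of each of the other 5 lists by at least 1 base, outside 2 windows on chromosome 13 (21 to 24 Mb) and chromosome 5 (120 to 130 Mb). This gave 37796 shared peaks among 105938 autosomal peaks of the Phe21 liver list, or 35.7%. The number depends on the overlap asked for, and with at least 50% of both peaks required it was 23516. The peaks were thus chosen by measured values, namely the presence of a called peak in all 6 lists, and that presence is a description and was not tested.

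The study deleted single genes of the tRNA-Phe family, whose tRNA carries phenylalanine to the ribosome, in mice on a C57BL/6N background, and measured chromatin accessibility by ATAC-seq in brain and liver of male mice. The knockouts were homozygous and their labels read tRNA-Phe-GAA-1-1-/- (Phe11), tRNA-Phe-GAA-2-1-/- (Phe21) and tRNA-Phe-GAA-3-1-/- (Phe31), each with wild type mice of matched litters as controls, and the labels name no treatment. The 32 libraries held 4 Phe11, 3 Phe21, 3 Phe31 and 5 wild type brains, and 4 Phe11, 3 Phe21, 3 Phe31 and 7 wild type livers. The 3 brain comparisons shared wild type libraries, as did the Phe11 and Phe21 liver comparisons, whereas the Phe31 liver comparison had wild type libraries of its own from a separate batch. The labels give no age, the study's general account of its animals gives a single young adult age, and the sources used here do not say how many CRISPR-Cas9 founders each line came from. The tissues were brain or liver nuclei without sorting of cell types, so that a change in cell makeup and a change within a cell type cannot be told apart in any value.

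ATAC-seq uses a transposase that cuts where DNA is not wrapped around nucleosomes or covered by other tightly bound protein, so that a peak marks a stretch that was open in many of the nuclei. Promoters of genes that most cells use are typically open in every tissue, whereas enhancers, which act on promoters from a distance, tend to be open in a few cell types. Binding sites of CTCF, a protein that anchors chromatin loops with cohesin, are also open in many tissues. RNA polymerase III reads tRNA genes from promoters that lie inside the gene itself.

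The deleted genes were checked first, as normalised counts per library at the tRNA loci. In the Phe11 libraries tRNA-Phe-GAA-1-1 had 28.1 to 40.6 in brain against 101 to 121 in wild type, and 1.24 to 5.31 in liver against 18.6 to 26.7. In the Phe21 libraries tRNA-Phe-GAA-2-1 had 0 to 1.83 in brain against 1.92 to 12.8, and 0 to 0.602 in liver against 1.19 to 4.2. In the Phe31 brains tRNA-Phe-GAA-3-1 had 0.94 to 2.84 against 42.3 to 48.3. The liver libraries labelled Phe31 went against their label, with 9.01 to 10.6 at tRNA-Phe-GAA-3-1 against 9.91 to 15.6 in wild type, and with 0 to 2.25 at tRNA-Phe-GAA-1-1 against 5.66 to 10.7. Their comparison is therefore named by its label only, and every direction drawn from it compares the libraries labelled Phe31 with their wild type libraries. Wild type livers 1 and 22 differed by less than sampling noise (chi-square 102 on 231 degrees of freedom over the tRNA loci), although the labels put them in batch 1 and batch 2, and were counted as 1 sample there, coded midway between the batches. Of the other pairs within a group, wild type livers 3 and 24 (chi-square 179 on 240), Phe11 livers 6 and 20 (185 on 242) and wild type brains 3 and 18 (205 on 276), each again from batches 1 and 2, had a lower-tail p under 0.01 too, a limit set after the data were seen, and were kept separate. Other pairs with a chi-square below its degrees of freedom did not pass that limit, the nearest being the livers a and c labelled Phe31 (163 on 202, lower-tail p = 0.0209, chi-square test of 2 libraries). The tests that hold them are given with these pairs averaged too. The normalised counts summed to between 6279 and 26895 per library over 401 tRNA loci; the depth over the peaks is unknown, because the peak tables hold the authors' group means only.

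The hepatocyte genes told the tissues apart, and the other marker genes did so only in part. Of 7 hepatocyte genes with a known start, 6 had it in a peak of liver lists and of no brain list, among them Alb, which encodes serum albumin, and 1 had it in a shared peak (Apoa1, the main protein of high-density lipoprotein). The Apoa1 start itself was in a peak of 3 liver lists and 0 brain lists, since the brain peaks met that shared peak elsewhere along it. Of 4 neuronal genes, 1 had its start in a shared peak (Slc17a7) and 2 had it in brain peaks only. The start of Syt1 was in a peak of 3 brain lists and 2 liver lists. Over the other 7 marker lists, from astrocytes to blood, 3 of 14 genes had their start in a shared peak. Of the 2 endothelial genes, Stab2 had it in 3 brain lists and 1 liver list. Cldn5 had it in 3 liver lists and 0 brain lists.

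Shared peaks lay mostly at CpG-rich promoters when they held a gene start, and 4 promoters are shown because they differ in how far their peak was shared or changed. Each is the 250 bases just before the gene start, 5′ to 3′ on the strand of the gene, from RefSeq on GRCm38.p6, the build of the peak lists. Capitals mark matches, on either strand, to GGGCGG (the GC box bound by Sp1-type factors), CCAAT (the site of NF-Y) and CACGTG (the E-box bound by Myc and by the clock proteins CLOCK and BMAL1). A match says only that these letters are there.
Rev1: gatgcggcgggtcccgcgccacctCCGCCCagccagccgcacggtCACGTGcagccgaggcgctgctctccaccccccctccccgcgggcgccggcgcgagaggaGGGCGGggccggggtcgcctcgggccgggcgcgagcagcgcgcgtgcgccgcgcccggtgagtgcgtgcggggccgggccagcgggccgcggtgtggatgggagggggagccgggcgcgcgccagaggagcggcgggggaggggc
Tars: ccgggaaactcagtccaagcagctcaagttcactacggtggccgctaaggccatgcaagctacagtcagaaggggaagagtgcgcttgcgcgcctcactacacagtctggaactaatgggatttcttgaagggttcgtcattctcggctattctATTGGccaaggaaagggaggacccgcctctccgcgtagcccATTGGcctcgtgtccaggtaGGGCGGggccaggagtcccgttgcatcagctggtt
Zfp932: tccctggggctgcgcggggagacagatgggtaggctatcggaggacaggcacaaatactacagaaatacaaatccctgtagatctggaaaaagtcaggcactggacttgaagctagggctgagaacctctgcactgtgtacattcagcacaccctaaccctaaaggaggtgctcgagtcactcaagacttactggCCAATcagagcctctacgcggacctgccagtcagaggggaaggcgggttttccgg
Alb: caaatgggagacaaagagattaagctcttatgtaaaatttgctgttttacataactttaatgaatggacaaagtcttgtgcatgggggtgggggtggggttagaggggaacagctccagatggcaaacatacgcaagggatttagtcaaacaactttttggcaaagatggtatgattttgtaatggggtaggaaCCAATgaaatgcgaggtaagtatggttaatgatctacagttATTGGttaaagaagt
The Rev1 promoter, chr1:38129667-38129916 (minus strand), belongs to a DNA polymerase that copies across damaged bases, and its shared peak was listed as changed in more tables than any other. The Tars promoter, chr15:11399659-11399908 (minus strand), belongs to the synthetase that loads threonine onto its tRNAs. The Zfp932 promoter, chr5:109996260-109996509 (plus strand), belongs to a zinc finger gene, and its peak was the one nearly lost in 4 tables. The Alb promoter, chr5:90460620-90460869 (plus strand), was in no shared peak and is given for contrast, with 39.2% G and C and 2 CpG pairs, where the Rev1 promoter had 83.6% and 42, Tars 57.6% and 14, and Zfp932 54.4% and 8.

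How broadly a liver peak was shared fell into a small number of patterns. Of the 105938 peaks, 37796 met all 5 other lists, 43363 met 2 of them, and 2195 met none, with 13696, 3594 and 5294 peaks meeting 1, 3 and 4 lists. In all, 58502 peaks met no brain list, and 42683 of these met both other liver lists. The Phe21 liver peaks were found again in the Phe11 liver list in 96.4% of cases and in the Phe31 liver list in 81.4%, against 44.1%, 41.3% and 40.1% in the Phe11, Phe21 and Phe31 brain lists. Seen from each list, shared peaks made up 39.8% of the Phe31 liver list, 35.7% of the Phe21 liver list, 30.1% of the Phe11 liver list, and 18.6%, 18.2% and 14.7% of the Phe31, Phe21 and Phe11 brain lists. The brain lists were longer (209430 to 262127 peaks) than the liver lists (98492 to 122543).

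Under the rule of 1 base few overlaps were of 10 bases or fewer. The least overlap with a list was 1 base in the Phe21 and Phe31 brain lists, 2 in Phe11 brain, 8 in Phe31 liver and 35 in Phe11 liver. Overlaps of 10 bases or fewer were counted for 10, 48 and 61 shared peaks in the Phe11, Phe21 and Phe31 brain lists, 0 in Phe11 liver and 1 in Phe31 liver. On the other side, 82, 414, 1204, 577 and 3017 peaks missed only the Phe11 brain, Phe21 brain, Phe31 brain, Phe11 liver or Phe31 liver list, and the nearest missed a brain peak by 1 base. The median shared peak was covered to 94.2% by its Phe11 brain peaks, 89.8% by Phe21 brain, 88.7% by Phe31 brain, 100% by Phe11 liver and 94.9% by Phe31 liver.

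Shared peaks were wide. Their median width was 476 bases (quartiles 290 and 912, range 139 to 36536), against 319 (quartiles 244 and 456) for the 68142 other peaks of the Phe21 liver list. A width of at least 1000 bases was found for 21.9% of shared peaks and 2.9% of the others. The shared peaks covered 26.5 Mb, or 49.5% of the bases under all peaks. A wide peak has more bases with which to meet a peak of another list, so width is tied to the rule itself and was not tested. Among peaks under 250 bases 25.6% were shared, rising over the width classes to 27.1%, 45.3%, 79.5% and, at 2000 bases or more, 86.8%. In the other lists the peaks that met a shared peak had a median width of 505, 452 and 442 bases in Phe11, Phe21 and Phe31 brain and of 600 and 444 bases in Phe11 and Phe31 liver.

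The widest shared peaks ran along genes in liver. The widest, 36536 bases, lay over Neat1, a long non-coding RNA that builds nuclear paraspeckles. The next were a peak of 23309 bases from Fasn, which makes fatty acids, one of 17088 bases over Errfi1, a feedback inhibitor of the EGF receptor, one of 16301 bases over Ass1, an enzyme of the urea cycle, and one of 14667 bases at Apeh, a peptide hydrolase. In brain these stretches were open in parts only. The Neat1 stretch held 14 to 16 peaks per brain list, which covered 27.8% to 31.4% of it, and the Ass1 stretch, chr2:31491230-31507530, held 6 peaks per brain list that covered 11.3% to 12.9%. At Fasn the brain peaks covered 10.6% to 13.5%, at Errfi1 13.1% to 15.3% and at Apeh 18.4% to 25%. The Phe11 liver list covered each of the 5 in full with 1 peak, whereas the Phe31 liver list broke Fasn, Ass1 and Apeh into 9 pieces each, covering 24.3%, 85.4% and 45.8%. Pck1, the rate-setting enzyme of glucose synthesis in liver, started in a shared peak of 9342 bases, of which 1 peak per brain list covered 7.39% to 7.95%, without the start itself.

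Shared peaks were found on all 19 autosomes. They made up between 32.5% of the peaks (chromosome 6) and 40.7% (chromosome 7). The median gap between neighbours was 15.8 kb (quartiles 4.65 and 43.8 kb), and the largest gap was 10.3 Mb. A gap of 1 kb or less followed 9.79% of shared peaks. The most crowded megabases held 107 shared peaks in chr8:70000000-70999999, where 33 coding genes started in one, and 104 in chr10:80000000-80999999, with 38 such genes.

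A gene start lay in 24.8% of 36595 shared peaks and in 2.1% of 65909 other peaks, counted on the 18 autosomes with starts in the RefSeq promoter table. Coding genes started in 8400 shared peaks and long non-coding RNA genes in 1410, and 2261 shared peaks held at least 2 starts. A further 53.1% of the shared peaks lay inside a gene without holding a start, where exons, introns and untranslated regions were not told apart, and 22.2% lay outside genes, against 67.9% and 30% of the others. Of shared peaks 47.4% were more than 10 kb from the nearest start.

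Width and gene starts went together, and the comparison was therefore repeated within width classes. Among peaks under 250 bases, 2.27% of the shared and 0.997% of the other peaks held a start. The shares were 7.26% and 1.58% at 250 to 499 bases, 29.8% and 3.96% at 500 to 999, 62.9% and 10.2% at 1000 to 1999, and 70.2% and 12.3% at 2000 or more. The shared peaks had the larger share in all 5 classes. Shared peaks with a start had a median width of 1085 bases (n = 9064) and those without one 382 (n = 27531).

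**Figure D1:**
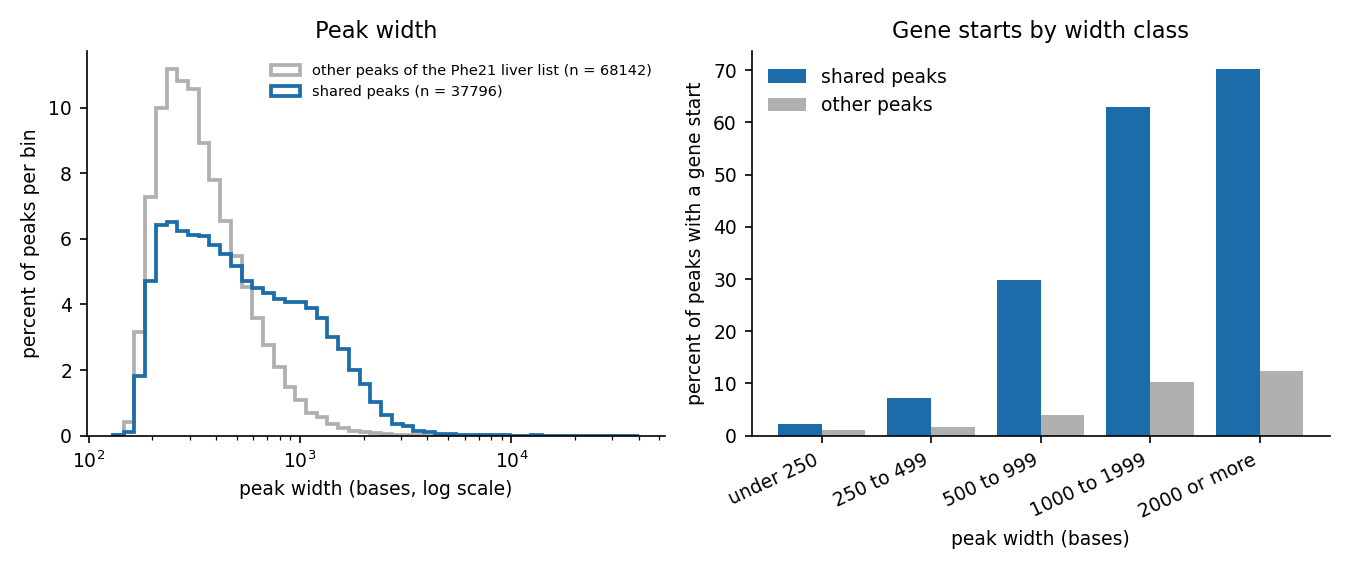
Left, the width of shared peaks (blue) and of the other peaks of the Phe21 liver list (grey) in bases on a log axis, as a percent of each set per bin; right, the percent of peaks that hold a gene start in 5 width classes. The shared peaks reach further to the right, with medians of 476 and 319 bases, and in the class of 1000 to 1999 bases 62.9% of shared and 10.2% of other peaks hold a start.

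Seen from the genes, 8832 of 16236 coding genes (54.4%) started in a shared peak, 2255 (13.9%) in some other peak of any list and 5149 (31.7%) in none. Of the 8832 genes, 8615 (97.5%) had the start itself inside a peak of all 6 lists. Long non-coding RNA genes started in a shared peak in 1410 of 9221 cases (15.3%). The gene lists were drawn up by gene symbol with earlier results of these data known, and their shares are descriptions. They hold only genes with a RefSeq start on the 18 autosomes used, outside the left-out windows. A list need not hold its whole family.

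Genes of protein synthesis mostly started in shared peaks. Aminoacyl-tRNA synthetases load tRNAs with amino acids, and all 27 with a known start had it in a shared peak. Among them were Farsa, Farsb and Fars2, which load phenylalanine. The same held for 66 of 68 mitochondrial ribosomal proteins and 38 of 40 genes of the translation initiation list. The elongation and release list had 9 of 12 and the cytosolic ribosomal list 55 of 65. By symbol, the initiation list also holds regulators such as Eif2ak4, the kinase that senses uncharged tRNA. The elongation list also holds enzymes that modify the factors, such as Eef2k and Eef2kmt, while Eef2 itself started in no peak. The ribosomal list also holds Rpl31-ps12 and Rps19bp1, which started in no peak. All 22 RNA polymerase subunits and all 8 RNA polymerase III factors that were measured were included, as were 20 of 23 genes of tRNA modification and export.

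The other housekeeping lists were alike. The proteasome list, which degrades proteins, had 36 of 41, the integrated stress response, which slows translation when tRNAs are uncharged, 11 of 12, and cohesin with CTCF 3 of 3. Clock genes drive the daily rhythm, and all 13 with a known start had it in a shared peak. Histone genes, counted outside the left-out windows only, were the exception with 7 of 20. Of the 20, 11 started in no peak, with H2ac18, H3c13 and H1f8 among them. In each of these lists except the proteasome, with 35 of 36, every start in a shared peak was also inside a peak of all 6 lists.

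**Figure D2:**
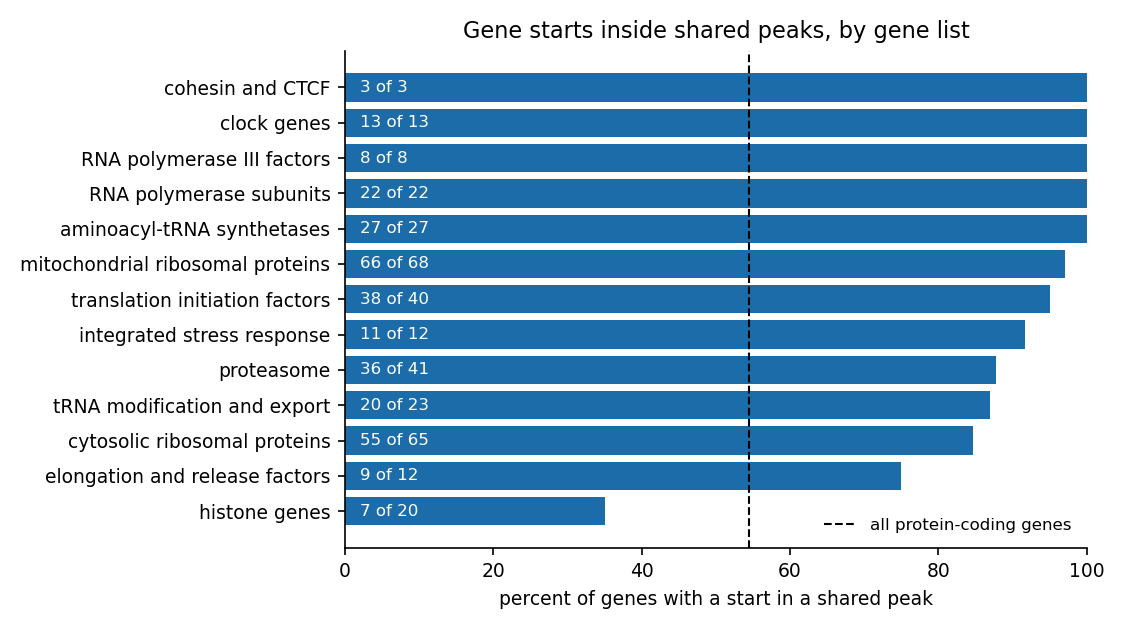
Percent of the genes of each list whose start lies in a shared peak, with the counts in the bars; the dashed line is the share over all protein-coding genes, 54.4%. The lists run from 35% of histone genes to 100% of the aminoacyl-tRNA synthetases and clock genes. Only genes with a known start outside the left-out windows are counted.

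The promoters themselves differed in base composition, which the rule did not use. Over the 300 bases from 250 before to 50 after the start, coding promoters that began in a shared peak (n = 10372, counting each start) had a median of 62.3% G and C and 22 CpG pairs. Those in no peak (n = 6333) had 47% and 3, and all coding promoters (n = 19841) 57% and 14. A CpG content of at least 0.6 of that expected from the bases was found in 78.5%, 10% and 48.9%, the measure usually taken for a CpG island. Coding promoters in some other peak lay between, with 55.3% G and C and 8 CpG pairs (n = 3136).

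Motifs were counted as exact matches on either strand in the same windows, for shared, peakless and all coding promoters in that order. GGGCGG was in 69.4%, 15.4% and 47.1%. CCGGAAG, a core of sites of the Ets family, was in 19.7%, 3.47% and 11.9%, GCATGCGC, from the site of NRF1, in 5.66%, 1.09% and 3.51%, and CACGTG in 10.8%, 4.25% and 7.92%. TGACGTCA, the site of CREB and ATF factors, was in 3.42%, 0.9% and 2.3%, and AGGGGGCGC, from the CTCF site, in 2.72%, 0.3% and 1.78%. The order was turned round for TATAAA, the TATA box, in 5.32%, 25% and 12.6%. CCAAT was in 38.2%, 40.1% and 38%, and GGTTCGA, from the internal promoter of tRNA genes, in 1.47%, 0.537% and 1.04%. Motifs rich in G and C are met more often in windows rich in G and C, and matches of different motifs may overlap.

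Among genes read by RNA polymerase III, 128 of 276 tRNA genes with a named amino acid outside the left-out windows (46.4%) lay in a shared peak and 132 in no peak of any list. They filled 94 shared peaks with a median width of 1238 bases, of which 24 held at least 2 tRNA genes and none more than 4. All 4 tRNA genes for tyrosine, 9 of 10 for threonine, 13 of 15 for arginine and 12 of 14 for proline lay in shared peaks, against 6 of 56 for cysteine, 3 of 11 for aspartate and 3 of 11 for histidine. These counts by amino acid are outside the windows too, where 4 of the 7 tRNA-Phe genes lie. Of all 7 tRNA-Phe genes, 3 lay in a left-out window (1-1, 1-3 and 3-1), 1 lay in no peak of any list (2-1) and 3 lay in shared peaks. These 3 were 1-2 at chr10:80248964-80249036 in a peak of 2961 bases, 1-4 at chr14:118089525-118089597 in a peak of 1331 bases, and 1-5 at chr19:12002236-12002308 in a peak of 540 bases.

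The authors' tables of changed peaks list peaks with a false discovery rate of at most 0.05, each with a concentration, the log2 of the mean normalised read count in the peak, for knockout and wild type. These are means over the libraries of a group, deposited without replicate values, so no SD can be given, and the listing is the authors' test. Counts are of peaks of each comparison's own list that met a shared peak, set beside the share listed among all peaks of that list.

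Changes at shared peaks were many in 3 comparisons and few or absent in the other 3. In Phe11 brain 4494 of 38643 peaks at shared places were listed (11.6%, against 16.3% of all peaks of that list). Of these 674 were higher in the knockout and 3820 lower, where the shares over all peaks were 4.07% higher and 12.3% lower. In Phe21 brain 502 of 38934 were listed (1.29%, against 0.718% of all), 481 higher and 21 lower, where all peaks gave 0.429% and 0.289%. In Phe31 brain none of 38881 was listed (0%, against 0% of all), and the only peak in that table lay in a left-out window.

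In Phe11 liver 1182 of 36847 peaks were listed (3.21%, against 4.16% of all), 569 higher and 613 lower, with 1.96% and 2.2% over all peaks. In Phe21 liver 5614 of 37796 were listed (14.9%, against 14.4%), 2580 higher and 3034 lower, with 7.32% and 7.1% over all. In the comparison labelled Phe31 liver 9041 of 39236 were listed (23%, against 19%), 3791 higher and 5250 lower, with 6.87% and 12.1% over all. The shares of shared peaks listed thus lay close to those of all peaks in Phe21 liver, above them in Phe21 brain and Phe31 liver, and below them in Phe11 brain and Phe11 liver, with no test of the difference.

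Width bore on these shares, and they were therefore set side by side within width classes, from under 250 bases to 2000 bases or more. In Phe31 liver 6.82%, 13.7%, 29.2%, 46.4% and 64.5% of the peaks at shared places were listed, against 4.91%, 15.3%, 38.4%, 63.4% and 89.7% of the peaks elsewhere. The shared share, higher over all widths, was thus lower in 4 of the 5 classes. In Phe21 liver it was lower in all 5, with 3.02%, 12.1%, 19.2%, 21.5% and 31% against 4.76%, 13.3%, 26.4%, 42.8% and 48.2%. In Phe11 liver it was lower in all 5 as well, from 0.179% against 1.69% to 10.6% against 32.2%. In Phe11 brain it was lower in the 4 narrower classes, from 1.68% against 10.8%, and higher in the widest, with 27.8% against 22.6%. In Phe21 brain it was lower in the 2 narrowest, with 0.0356% against 0.158% and 0.257% against 0.641%, and higher in the others, with 1.39% against 1.03%, 4% against 1.4% and 6.43% against 2.14%.

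**Figure D3:**
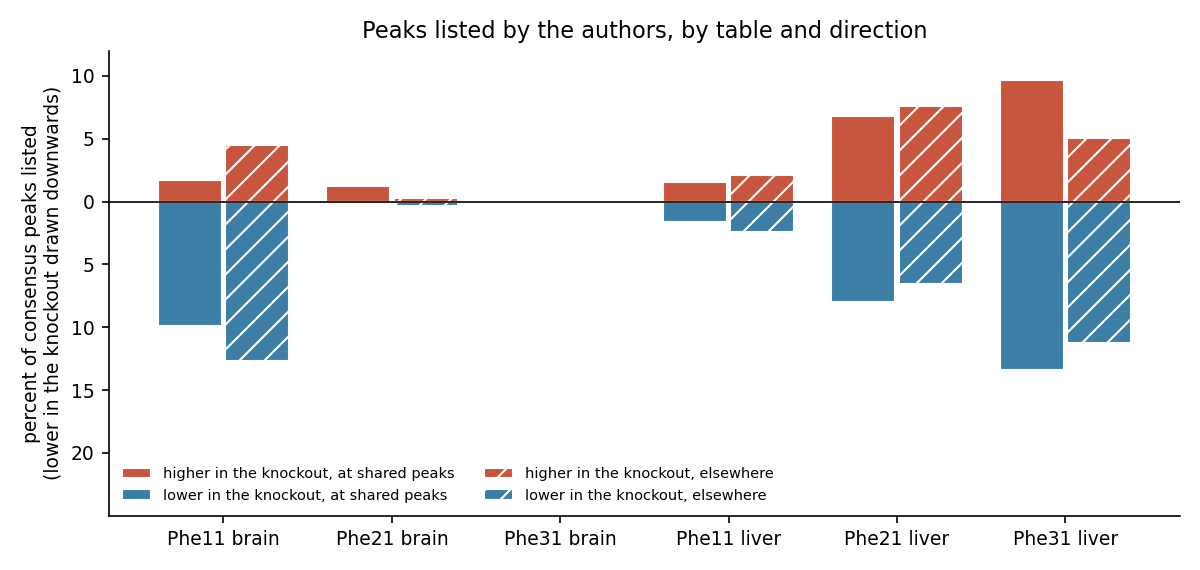
Percent of each comparison's peaks that the authors listed, at shared peaks (plain bars) and elsewhere (hatched bars), drawn upwards for peaks higher and downwards for peaks lower in the knockout. Phe21 brain has almost no lower peaks at shared places (21 of 502), Phe31 brain has no bar, and Phe31 stands for libraries so labelled.

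Listed shared peaks had higher concentrations and smaller differences than listed peaks elsewhere, given here with no test. The median concentration was 8.01 at shared peaks and 5.24 elsewhere in Phe11 brain, 8.96 and 6.11 in Phe21 brain, 7.37 and 5.08 in the Phe11 livers, 6.66 and 5.69 in Phe21, and 7.27 and 5.86 in Phe31. The median size of the difference between knockout and wild type, on the log2 scale, was 0.35, 0.46, 0.53, 0.66 and 0.54 at shared peaks and 1.06, 1.10, 1.07, 0.89 and 0.84 elsewhere, in the same order. A difference of at least 1 was met by 10.5%, 5.38%, 13.7%, 25.8% and 8.72% of the listed shared peaks. Smaller differences reach a given false discovery rate where a peak holds more reads, and concentration also rises with width because it counts reads over the whole peak.

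Over the tables, 22372 shared peaks (59.2%) met no listed peak, 10815 met one in 1 table, 3729 in 2, 768 in 3, 111 in 4 and 1 in 5. A brain table listed a peak at 5087 shared peaks (13.5% of all shared peaks) and a liver table at 12881 (34.1%). Both did so at 2544 (6.73%), which was 50% of the brain-listed and 19.8% of the liver-listed ones, to be read against the 34.1% and 13.5% of all shared peaks.

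The directions of change were split by whether the shared peak held a gene start, with no test of the split. In Phe11 brain 1718 peaks with a start were listed (18.6% of such peaks), 51 higher and 1667 lower, and 2622 without a start (9.3%), 585 higher and 2037 lower. In Phe21 brain 3 of 298 listed peaks with a start were lower, and 17 of 192 without one. In Phe11 liver 226 of 407 peaks with a start were higher, and 322 of 741 without one. In Phe21 liver 1020 of 1589 with a start were higher, and 1463 of 3868 without one. In Phe31 liver the split was the other way, with 666 of 3476 peaks with a start higher (38.1% of such peaks listed), and 2944 of 5273 without one. Peaks with a start were thus mostly lower in Phe11 brain and Phe31 liver and mostly higher in Phe21 brain and Phe21 liver. The listed peaks with a start that lay outside shared places had the same main directions. Of these other peaks 21.5% of those listed were higher in Phe11 brain, 77.8% in Phe21 brain, 72.2% in Phe21 liver and 28.2% in Phe31 liver, where the shares at shared peaks were 2.97%, 99%, 64.2% and 19.2%. The listed share among them was 15.3% and 0.727% in Phe11 and Phe21 brain, and 5.84%, 23.6% and 30.6% in the Phe11, Phe21 and Phe31 livers. Without a start the main direction was not always the same. Of such listed peaks 91.1%, 37.8% and 55.8% were higher at shared places in Phe21 brain, Phe21 liver and Phe31 liver. Elsewhere these shares were 41.5%, 52.5% and 30.8%. In Phe11 brain and Phe11 liver they were 22.3% and 43.5% at shared places and 26% and 46.6% elsewhere. The tables carry the authors' scaling of the libraries and hold listed peaks only, so directions under another scaling were not tested.

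**Figure D4:**
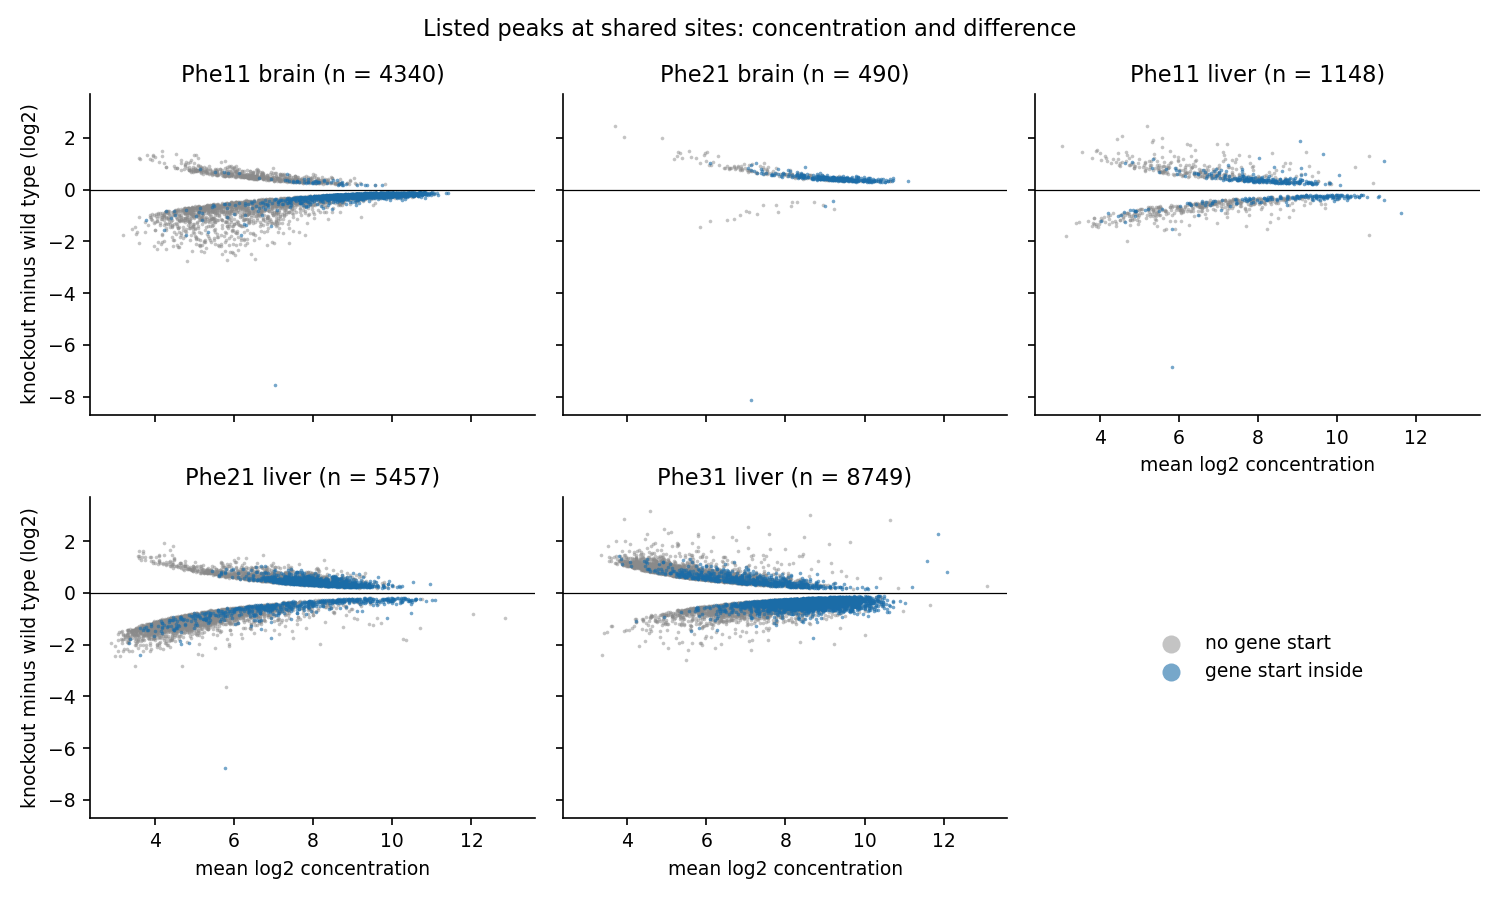
Each point is a listed peak at a shared place in 1 of the 5 comparisons that list any; the x axis is the mean log2 concentration and the y axis the log2 difference of knockout minus wild type, with peaks that hold a gene start in blue. Differences narrow as concentration rises, and the lone point near -7 to -8 in 4 panels is the Zfp932 promoter.

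The libraries labelled Phe31 in liver shared no library and no batch with the other comparisons, so their calls can be set beside them. Each shared peak took the sign of the listed peak that covered most of it. The overlaps are to be read against all shared peaks. Of these 12.4% and 1.39% met a listed peak in Phe11 and Phe21 brain. In the Phe11, Phe21 and Phe31 livers 3.34%, 14.9% and 23.7% did. The signs are to be read against each main direction. Higher peaks were 15% and 95.8% of those listed at shared places in Phe11 and Phe21 brain. They were 48.1%, 46% and 41.9% in the Phe11, Phe21 and Phe31 livers. With Phe11 brain 1645 shared peaks were listed in both (35.2% of Phe11 brain, 18.4% of Phe31 liver), 1220 lower in both, 69 higher in both and 21.6% in opposite directions. With a gene start the opposite share was 7.37% of 977, and without one 42.9% of 623. With Phe21 brain 299 were listed in both (57.1% and 3.34%), of which 279 were higher in Phe21 brain and lower in Phe31 liver. With Phe21 liver 1950 were listed in both (34.7% and 21.8%), and 81.9% had opposite signs, 1149 being higher in Phe21 liver and lower in Phe31 liver and 448 the reverse. With Phe11 liver 614 were listed in both (48.6% and 6.86%), 65.5% with opposite signs. Why the liver comparisons differ in sign was not tested, and batch and label cannot be told apart in the Phe31 liver libraries.

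The gene lists are read against all shared peaks with a gene start, of which 18.6% were listed in Phe11 brain and 3.24% in Phe21 brain, and 4.42%, 17.5% and 38.1% in the Phe11, Phe21 and Phe31 livers, in the directions given above. Of the marker genes that start in shared peaks, Apoa1 was listed at -0.24 in Phe21 liver and -0.47 in Phe31 liver, P2ry12, a receptor of microglia, at -1.28 in Phe21 liver, and Aldoc, an astrocyte enzyme, at -0.61 in Phe31 liver, and their part in the results was not tested.

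The listed promoters of protein synthesis genes had the directions of all listed peaks with a start. In Phe11 brain the peaks at 13 of 55 cytosolic ribosomal protein genes (23.6%) were listed, 13 lower, with a median of -0.21 on the log2 scale. In Phe31 liver 15 (27.3%) were listed, 15 lower (median -0.43). In Phe21 liver 8 (14.5%) were listed, all of them higher (median 0.35), and in Phe21 brain 4 (7.27%), all of them higher (median 0.41). In Phe11 liver none was. Rps19, a protein of the small subunit, had a concentration of 9.97 in knockout and 10.18 in wild type in Phe11 brain, 10.65 and 10.25 in Phe21 brain, and 9.01 and 9.52 in Phe31 liver.

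Aminoacyl-tRNA synthetase promoters were listed for 5 of 27 genes (18.5%) in Phe11 brain, 5 lower (median -0.19), and for 12 (44.4%) in Phe31 liver, 12 lower (median -0.35). In Phe21 liver 9 (33.3%) were listed, 8 of them higher. Tars had 9.50 against 9.70 in Phe11 brain, 8.23 against 7.89 in Phe21 liver and 7.70 against 8.17 in Phe31 liver, knockout first. For phenylalanine, Farsb had 7.78 against 8.42 in Phe31 liver, and the mitochondrial Fars2 had 8.57 against 8.30 in Phe11 liver and 8.71 against 8.31 in Phe21 liver. Initiation factor promoters were listed for 23 of 38 genes (60.5%) in Phe31 liver, 23 lower (median -0.39), and for 8 (21.1%) in Phe11 brain, 8 lower. The same list had 6 genes (15.8%) in Phe21 liver, 5 of them higher (median 0.36), 3 (7.89%) in Phe21 brain, 3 higher, and 4 (10.5%) in Phe11 liver, 2 in each direction. Mitochondrial ribosomal proteins had 14 of 66 (21.2%) listed in Phe11 brain, 14 lower, and 20 (30.3%) in Phe31 liver, 19 lower, whereas 9 of 10 (15.2% listed) were higher in Phe21 liver.

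Clock gene promoters were listed for 11 of 13 genes (84.6%) in Phe31 liver, 11 lower (median -0.43), and for 6 (46.2%) in Phe11 brain, 6 lower (median -0.21). In Phe21 liver 3 (23.1%) were listed, 2 higher, and in Phe21 brain 2, 2 higher. Nr1d1, a repressor of the clock, had 7.75 in knockout and 8.45 in wild type in Phe31 liver, and 10.01 and 10.23 in Phe11 brain. Dbp, a clock output factor, had 8.46 and 9.11 in Phe31 liver, 10.89 and 11.03 in Phe11 brain and 10.27 and 9.94 in Phe21 brain. The hour at which tissues were taken was not given in the labels, and its part in these values was not tested.

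Among stress response genes, Asns, which makes asparagine and is induced by that response, had 8.24 in knockout and 8.60 in wild type in Phe11 brain and 6.31 and 6.79 in Phe21 liver. Eif2ak4 had 9.25 and 9.42 in Phe11 brain, 8.29 and 7.94 in Phe11 liver, and 8.30 and 7.94 in Phe21 liver. Eif2ak3, the kinase that senses unfolded proteins in the endoplasmic reticulum, was listed as lower in all 3 liver tables, by -0.27, -0.22 and -0.51 in Phe11, Phe21 and Phe31. Of 11 such genes 5 (45.5%) were listed in Phe11 brain, 5 lower, and 4 (36.4%) in Phe31 liver, 4 lower, whereas Phe21 liver had 3 (27.3%), 1 higher and 2 lower, Phe11 liver 2 (18.2%), 1 in each direction, and Phe21 brain 0. RNA polymerase III factors had 2 of 8 listed in Phe21 liver, 1 in each direction, and 3 in Phe31 liver, 1 of them higher. Of 36 proteasome genes 11 (30.6%) were listed in Phe31 liver, 11 lower, 7 (19.4%) in Phe21 liver, 4 lower, and 5 (13.9%) in Phe11 brain, 5 lower, with 1 each (2.78%) in Phe21 brain and Phe11 liver, both higher. In these lists, as over all listed peaks with a start, most Phe11 brain and Phe31 liver calls were lower, and the lists were not tested against the other promoters.

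The shared peak with the strongest change in 4 tables was the Zfp932 promoter, whose sequence was given with the promoters, at chr5:109996203-109996686. Its concentration was 0.47 in knockout and 8.03 in wild type in Phe11 brain. It was listed at 0 in the knockouts of Phe21 brain, Phe11 liver and Phe21 liver, against 8.13, 6.84 and 6.78 in wild type. It was listed in neither Phe31 table. The Phe11 and Phe21 comparisons shared wild type libraries within each tissue, so the tables of a tissue are not independent for the wild type level.

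Several other shared peaks with large differences in their tables lay inside genes, and others lay outside genes, such as chr12:69419130-69419421, at 1.93 in Phe11 liver and -2.58 in Phe31 liver. A peak inside Cth, which makes cysteine, at chr3:157900659-157900989 had 1.49 in knockout and 4.30 in wild type in Phe21 liver (difference -2.81), 5.42 and 2.27 in Phe31 liver (3.15), and 6.23 and 5.58 (0.65) at the Phe11 brain peak that met it in part, chr3:157900896-157901582. A peak inside Atp11a, a lipid flippase, at chr8:12774964-12775735 was lower in each of the 3 tables that listed it, by -3.64 in Phe21 liver, -1.72 in Phe11 liver and, at a Phe11 brain peak that met it in part, -1.25. A peak inside Arpp21, a brain phosphoprotein gene, at chr9:112137874-112138175 was listed in liver only, at -2.84 in Phe21 and -1.98 in Phe11. Inside Gad2, which makes the transmitter GABA, the shared peak chr2:22670390-22670841 was met in part by the Phe11 brain peak chr2:22670767-22671301, which had 3.90 and 6.62, and no other table listed a peak there. Inside Fgg, a fibrinogen gene of liver, the Phe11 brain peak chr3:83011735-83012052, a small piece of a shared peak of 3965 bases, had 2.85 and 5.60.

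Several peaks changed in opposite directions in different livers. A peak over Mlycd, an enzyme of fatty acid metabolism, at chr8:119415199-119417029 had log2 differences of -0.91, -1.41 and 2.99 in the Phe11, Phe21 and Phe31 livers. A peak inside Egfr, the EGF receptor, at chr11:16902780-16908381 was 0.69 higher in Phe21 liver, and its 5 Phe31 liver pieces ranged from -1.44 to -2.42. A peak near Cish, a feedback inhibitor of cytokine signals, at chr9:107303204-107303733 was 1.99 higher in Phe11 liver, 1.00 higher in Phe21 liver and -1.89 in Phe31 liver. The Ass1 stretch was -1.81 in Phe21 liver, and its 9 pieces in Phe31 liver were higher by 1.37 to 1.90. Pck1 was listed in Phe31 liver with 12.58 in knockout and 10.31 in wild type, among the 5 highest concentrations of the listed peaks at shared places in that table.

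Of the shared peaks, 1 met listed peaks in 5 tables and 111 in 4, the Zfp932 promoter among them. That peak and the 9 of highest mean concentration among the 111 were looked at, and 8 of these 10 held a gene start. The Rev1 promoter peak at chr1:38128867-38130338 was the one in 5 tables, at -0.19 in Phe11 brain, 0.37 in Phe21 brain, and 0.28, 0.47 and -0.26 in the Phe11, Phe21 and Phe31 livers. The Fbrs, Zfp687, Ap2a1, Mon1b, Mob3a and Evi5l promoters were listed as lower in Phe11 brain and all 3 liver tables. Zfp687, a zinc finger gene, had 10.87 in knockout and 11.02 in wild type in Phe11 brain, 10.40 and 10.68 in Phe11 liver, 10.31 and 10.60 in Phe21 liver, and 9.88 and 10.37 in Phe31 liver. Neat1 had 12.28 and 13.24 in Phe21 liver over its whole stretch, and in Phe31 liver its longer piece had 13.22 and 12.97.

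The 3 tRNA-Phe genes in shared peaks were compared per library, as normalised counts over the gene and 50 bases on each side. In brain tRNA-Phe-GAA-1-2 had 73.9, 57.2, 57.3 and 70.2 in Phe11 and 69.8, 75.4, 74.2 and 95 in wild type, and the groups overlapped. In Phe21 brain it had 82.6, 96 and 83.5 against 68.4, 66.3 and 74.7, with every knockout above every wild type library. In Phe11 liver it had 23.5, 16.6, 22.1 and 24.3 against 34, 27, 38.6 and 36, and in Phe21 liver 16.9, 28.3 and 29.3 against 37, 29.4 and 39.9. In both livers every knockout library was below every wild type library, in Phe21 by little more than the rounding at 29.3 and 29.4.

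Only 1 of these loci passed limma over all tRNA loci, and not under every setting. In Phe11 liver tRNA-Phe-GAA-1-2 was lower by -0.59 ± 0.21 (SE) on the log2(value + 1) scale (limma, adjusted p = 0.0423, n = 4 and 3), where 10.5% of 209 tested loci passed and edgeR called it too, with 9.57% called in all. That call was lost when any library other than Phe11 liver library 4 was left out, within batch 1 or batch 2 alone, and when the mean of wild type livers 1 and 22 was put in batch 2 rather than midway between the batches, but not when it was put in batch 1. It was also lost when all 3 agreeing pairs of that table were averaged (-0.58 ± 0.24, limma adjusted p = 0.162, n = 3 and 2, with 6.25% called). In Phe21 liver the difference was -0.53 ± 0.22 (limma, adjusted p = 0.0925), where 13.4% passed, and edgeR on whole reads recovered from the values called it, with 16.9% called in all. Wild type library 24 of that comparison, with the highest value (39.9), is from batch 2 and the other 5 libraries are from batch 1. In batch 1 alone the difference was -0.44 ± 0.27 (limma, adjusted p = 0.324, n = 3 and 2), and with wild type livers 3 and 24 averaged it was -0.55 ± 0.25 (limma, adjusted p = 0.172, n = 3 and 2). In Phe21 brain it was 0.32 ± 0.12 (limma, adjusted p = 0.168), where limma called 0% and edgeR 0.791%. Limma had 43 of 253 loci at an unadjusted p under 0.05 there. In Phe11 brain it was -0.28 ± 0.12 (limma, adjusted p = 0.0722), where 28.1% passed, and with wild type brains 3 and 18 averaged it was -0.24 ± 0.12 (limma, adjusted p = 0.135). In Phe31 brain and Phe31 liver the limma adjusted p was 0.986 and 0.793, where 0.775% and 10.7% passed and edgeR called 0.775% and 3.93%.

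Groups that did not overlap were common among all tested loci, at 27.8%, 24.1% and 11.2% in Phe11, Phe21 and Phe31 brain and 14.4%, 31.3% and 23.6% in Phe11, Phe21 and Phe31 liver. The genes 1-4 and 1-5 passed in no table under limma, with the smallest adjusted p at 0.186 for 1-5 in Phe11 brain. In Phe31 brain 1-5 had 63.3, 52.7 and 60.6 against 52.4, 41.3 and 47.1 in wild type, with every knockout library above every wild type library, at its closest 52.7 against 52.4. The difference was 0.32 ± 0.15 on the log2 scale (limma, adjusted p = 0.723, n = 3 and 3). Summed, the 3 loci took 0.705% to 0.813% of the tRNA-locus signal in group means in brain and 0.727% to 1.17% in liver. The knockout share differed from wild type by -0.105 to 0.107 percentage points, with an exact two-sided permutation p of 0.1 to 0.914 (adjusted over 6 comparisons, 0.4 to 0.914). With 3 libraries against 3 the smallest p is 0.1, and in the Phe11 comparisons it is 0.0286.

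**Figure D5:**
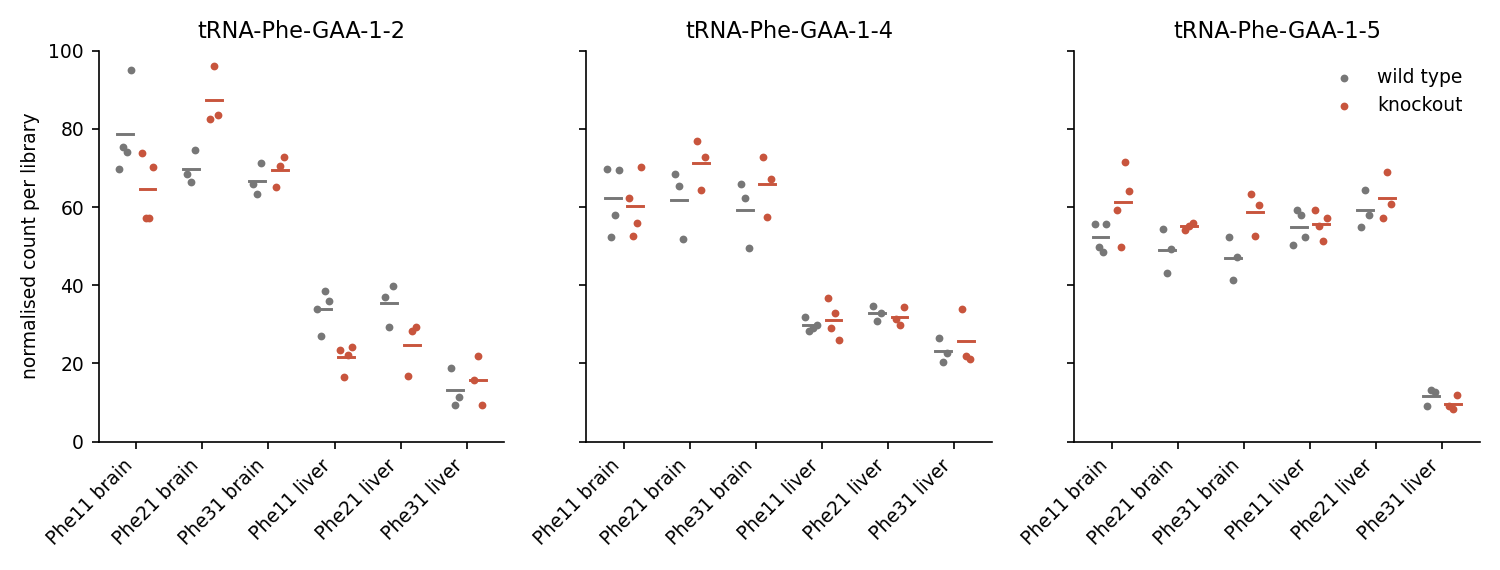
Normalised count per library (y axis) at the 3 tRNA-Phe genes that lie in shared peaks, in each comparison (x axis), with wild type in grey, knockout in red and lines at the means of the points drawn. For tRNA-Phe-GAA-1-2 the Phe21 knockouts lie above wild type in brain and below it in liver, and in Phe11 liver they lie below it.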

How the data were processed

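ATAC-seq libraries were made from brain and liver nuclei of male mice. Per the study's methods and the labels, the authors trimmed reads with Trim Galore 0.6.4 and cutadapt 1.18, aligned them with Bowtie2 2.4.1 (GRCm38.p6), removed duplicates (Picard 2.23.8), kept well-mapped reads (SAMtools 1.10) and short nucleosome-free fragments, and called peaks per group of samples with Genrich 0.6. Consensus peaks and log2 concentrations (group means, deposited without replicate values) came from DiffBind 3.0.8, which lists peaks with a false discovery rate of at most 0.05. The deposited fold, p-value and false discovery rate columns hold the authors' own comparisons; the false discovery rate was read only to check that limit. In the Phe21 tables and the Phe31 brain table the knockout mean is headed Phe11 and was taken as the knockout of that table. The deposited tRNA signal values are counts per locus with 50 bases on each side (featureCounts 2.0.0), divided by the authors' size factors (DESeq2 1.30.0).

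Members and gene lists were chosen with earlier results of these data known. Samples were grouped by their labels. Intervals were joined in Python 3.11.15 (numpy 2.4.6, pandas 2.3.3). Gene starts and promoters were RefSeq's on GRCm38.p6 (31067 starts, matched by gene identifier). tRNA values were tested with limma 3.58.1 on log2(value + 1), at a mean of at least 10, with batch as a term for Phe11 (the mean of wild type livers 1 and 22, from batches 1 and 2, coded midway) and no batch term for Phe21 liver, where 1 wild type library is from batch 2, and adjusted by Benjamini-Hochberg; shares were tested by exact permutation. Steps in the values gave whole reads for 100% of the values, and edgeR 4.0.16 on these called 67, 2, 2, 20, 34 and 7 loci in Phe11, Phe21 and Phe31 brain and Phe11, Phe21 and Phe31 liver, where limma called 74, 0, 2, 22, 27 and 19. The methods were checked on simulated data. Named peaks were, per table, the 3 highest and 3 lowest differences, up to 10 listed most often, the 5 widest, the 5 highest and lowest in concentration, and up to 4 examples a gene list. Peaks on X, unplaced contigs (1923) and in the windows (1051) were left out. The study counts mice for each tissue and does not say whether brain and liver libraries came from the same mice. Some library numbers, such as 7, 8 and 9 of Phe21, occur in both tissues, but the labels number no animals.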

Additional observations from a re-analysis of the deposited data

Results flagged for a closer look

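For the tRNA-Phe-GAA-1-2 gene, in a shared peak, the Phe21 and wild type libraries lay apart in both tissues, with the order turned round. In Phe21 brain every knockout library was above every wild type library (0.32 on the log2 scale), and in Phe21 liver every knockout library was below every wild type library (-0.53), by as little as 29.3 against 29.4. Neither difference passed limma (adjusted p = 0.168 in brain and 0.0925 in liver), and 24.1% of all tested loci in brain and 31.3% in liver had groups that did not overlap. In liver the wild type library 24 is from batch 2 and the others from batch 1, and in batch 1 alone the difference was -0.44. The difference between the tissues was not tested, since the tables were normalised separately.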

How the results depend on the processing

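With at least 50% of both peaks required to overlap, 23516 peaks were shared, with a median width of 460 bases. Starting from the Phe11, Phe21 or Phe31 brain list or the Phe11 or Phe31 liver list, the median width was 516, 459, 446, 605 or 449 bases. In Phe11 brain 4674 shared peaks met a listed peak, and 3052 did when 50% of both peaks had to overlap. A log2 difference of at least 1 left 479 shared peaks in Phe11 brain, 27 in Phe21 brain, and 174, 1448 and 745 in the Phe11, Phe21 and Phe31 livers. Among alternatives added after the data were seen, the share of shared peaks with a gene start was 26.7%, 30.1% and 26.6% under 3 stricter overlap rules, 25.6% from the Phe11 liver list and 25.5% with the whole promoter window.

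The number of tRNA-Phe genes in shared peaks called was 0 to 1 in Phe11 brain and 0 to 1 in Phe11 liver as single libraries were left out. In Phe11 liver it was 0 with no filter on low values (difference -0.59), 0 with equal totals (-0.56), and 0 in batch 1 or batch 2 alone; of alternatives added after the data were seen, it was 0 with the mean of wild type livers 1 and 22 put in batch 2, 1 with it put in batch 1, and 0 with all pairs of a lower-tail p under 0.01 averaged; in Phe21 liver edgeR called 1. The share of tRNA-locus signal in Phe11 brain, -0.00649 percentage points, ran from -0.0305 to 0.0306 without single libraries, turning positive without wild type library 18 (0.0291) or Phe11 library 6 (0.0306), and was 0.00137 in batch 2 alone and 0.00145 with wild type brains 3 and 18 averaged. The causes were not tested. Of 261 alternatives over 39 results, 222 were labelled the same as the main result. For counts this meant equal or near the main count, with no direction or call involved. For signal shares and single loci it meant the same direction and the same call. No paired analysis was possible because the groups compared share no replicate numbers in the labels. Leaving out all 7 tRNA-Phe loci was not run, since these are the only loci tied to positions. Peak tables without replicate values limit every statement on concentration to the authors' call.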

Other observations

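Other RNA genes met shared peaks at different rates. Any part of the gene met a shared peak for 118 of 1128 microRNA genes (10.5%), 54 of 1282 snoRNA genes (4.21%), 32 of 925 snRNA genes (3.46%) and 143 of 8809 pseudogenes (1.62%), against 13221 of 20395 coding genes (64.8%). Long genes have more bases to meet a peak, and these shares were not tested. Long non-coding RNA promoters that began in a shared peak (n = 1582) had a median of 61% G and C and 20 CpG pairs, where all of them (n = 11226) had 48.3% and 4.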
